A study of Mus musculus with 12 samples.

Results

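The high mobility group AT-hook genes Hmga1 and Hmga2, the Lin28 genes Lin28a and Lin28b and the Igf2bp genes Igf2bp1, Igf2bp2 and Igf2bp3 were followed across 4 NIH-3T3 lines. NIH-3T3 is an immortalized mouse embryo fibroblast line of NIH/Swiss background. Members were the rows carrying 1 of these 7 symbols, and 8 of the 39179 gene identifiers did so, because the tables give the symbol Hmga1 both to the gene on chromosome 17 and to its single-exon copy Hmga1b on chromosome 11. The set was proposed because Hmga1 and Hmga2 were high in both mutant lines, so the members' levels in those lines against the empty vector are a description, given with no p-value, and counts of calls there support nothing. Of the 8 identifiers, 7 reached a mean normalized read count of 10 in at least 1 line and entered the fit with 15266 genes in all, and Lin28a did not.

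The lines stably carried a puromycin-selected pBabe retroviral vector that was empty (EV) or carried FLAG-tagged CBL in its wild-type form (WT-CBL) or as the mutants CBL-70Z and CBL-Y371S. CBL is an E3 ubiquitin ligase that marks activated receptor tyrosine kinases for degradation. CBL-70Z lacks a short internal stretch next to and within the RING region and CBL-Y371S carries a serine in place of the regulatory linker tyrosine, and both lack E3 activity. The labels give passages 13 to 17 for all lines and do not say whether a line was a clone, and all kept their endogenous Cbl. Each line gave 3 RNA-seq libraries, 12 in all, and nothing in the labels says that the libraries came from separate cultures, so p-values measure the spread between these libraries only.

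HMGA proteins are small architectural chromatin factors that bind the minor groove of AT-rich DNA, are abundant in embryonic and transformed cells and are low in most adult tissues. LIN28A and LIN28B bind precursors of the let-7 microRNAs and block their maturation. The IGF2BP proteins bind mRNAs, Igf2 among them, and affect their stability, transport and translation. Hmga2, Lin28b and Igf2bp1 are classical targets of let-7, which pairs through its seed with sites in their 3′ UTRs.

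The mature let-7 sequences are shown because their seed defines the sites searched for in every member. The libraries were made from poly(A) RNA, so mature microRNAs were not measured. The 4 family members below, from RefSeq on GRCm38.p6, have the seed, bases 2 to 8, in capitals, and 10 of the 11 let-7 and miR-98 names in that table carried the same seed GAGGUAG.
let-7a-5p: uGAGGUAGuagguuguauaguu
let-7e-5p: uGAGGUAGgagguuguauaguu
let-7g-5p: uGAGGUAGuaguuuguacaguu
miR-98-5p: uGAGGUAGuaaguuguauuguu

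A site was counted where the longest annotated 3′ UTR of a gene (GENCODE M21, GRCm38) held CTACCTC, the complement of bases 2 to 8, or TACCTCA, the complement of bases 2 to 7 followed by A. An 8-base site, CTACCTCA, holds both and was counted once. All 8 members held at least 1 site, against 17.2% of the 12057 tested genes with an annotated 3′ UTR (2069 genes). Nothing is read from this contrast, because classical let-7 targets are among the members. Lin28a is also not among the tested genes, and the site of Hmga1b repeats that of Hmga1. The contrast is not matched for length either: outside the members, the median 3′ UTR was 988.5 bases with 0 sites and 2178 bases with 1 site. Hmga2 had 7 sites in 3014 bases, a number that 5 of the 12057 genes reached or passed. Lin28b had 5 in 4445 bases, Igf2bp1 5 in 6337 bases, Lin28a 2 in 2775 bases and Igf2bp2 2 in 1784 bases. Igf2bp3 had 1 in 2119 bases, Hmga1 1 in 1183 bases and Hmga1b 1 in 1207 bases. A match of letters is a description and not a test of binding.

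The 7 sites of Hmga2, in order from the stop codon, were spread over most of the 3′ UTR, with the matched bases in capitals. The first of them, 58 bases into the UTR at chr10:120364220-120364242 on the minus strand, was the only 8-base site.
Hmga2 site 1: acattcaatttCTACCTCAgcat
Hmga2 site 2: cgcagtaccactTACCTCAgatg
Hmga2 site 3: actcctcaataCTACCTCtgaat
Hmga2 site 4: tctccaagtttgTACCTCAaatg
Hmga2 site 5: tttgcaaggaaCTACCTCcacac
Hmga2 site 6: aaaacacactaCTACCTCttaag
Hmga2 site 7: taagtcccagtaTACCTCAtttt

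The other members are shown by their 8-base sites, or by the single 7-base site of Hmga1. The window printed for Hmga1 at chr17:27563281-27563303 was letter for letter the one found in Hmga1b at chr11:120764002-120764024. Igf2bp1 was the member with the most 8-base sites, 3 of its 5.
Hmga1 and Hmga1b: ctgttcacaaaCTACCTCtggac
Lin28a site 1: agcctgttgaaCTACCTCAtttt
Lin28a site 2: tcgccacaaacCTACCTCActgt
Lin28b site 1: gggcgggaagtCTACCTCAtgca
Igf2bp1 site 1: tgcgaagtaaaCTACCTCAaggt
Igf2bp1 site 3: agtgctattaaCTACCTCAgccc
Igf2bp1 site 4: aaatggatgaaCTACCTCAgtcc
Igf2bp2 site 1: acaaataaaagCTACCTCAggtg
Igf2bp3: tttttactcaaCTACCTCAggta

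**Figure D1:**
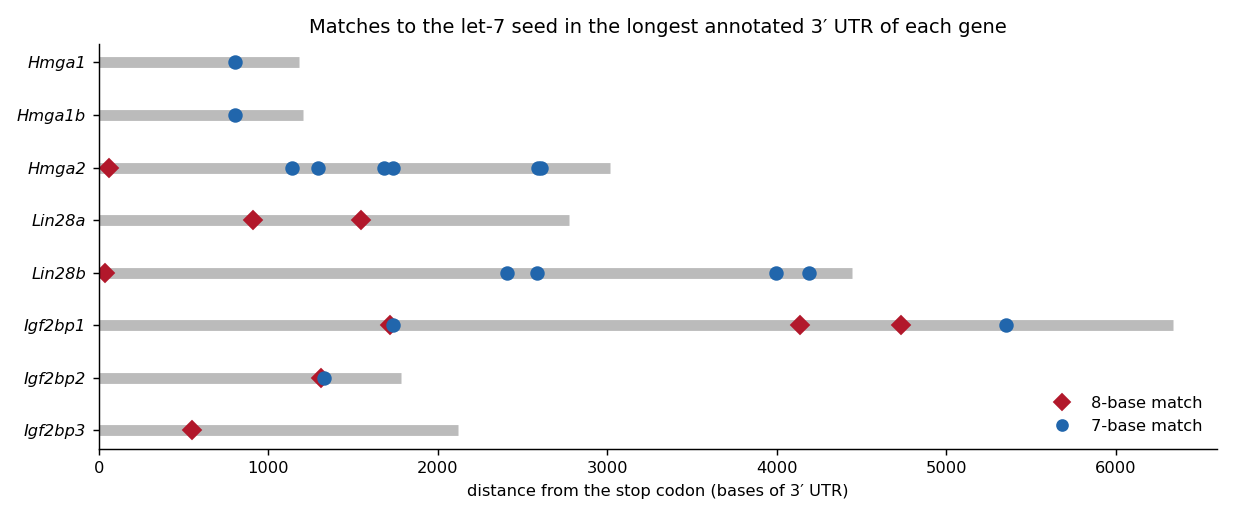
Matches to the let-7 seed along the longest annotated 3′ UTR of each member; the horizontal axis is the distance from the stop codon in bases, grey bars are the UTRs, diamonds are 8-base and circles 7-base matches. Hmga2 holds 7 matches and Igf2bp1 and Lin28b 5 each, while Hmga1, Hmga1b and Igf2bp3 hold 1 each.

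Reads in genes numbered between 20724468 and 29684881 per library. WT-CBL replicate 3 stood apart: its median absolute log2 difference from the other libraries of its line was 0.10 over the tested genes, against 0.054 to 0.075 for the other 11 libraries, so each member's result with WT-CBL whose call changes without it is given both ways. Without it 34.8% of all genes were called in WT-CBL against EV, beside 41.8% with it. Differences between lines also followed gene length, with a Spearman rho between log2 fold change and exon length against EV of -0.41 for WT-CBL and -0.37 for CBL-Y371S, with -0.17 for CBL-70Z (15095 genes, which are not independent replicates), so longer transcripts tended to be lower in WT-CBL and CBL-Y371S. The libraries of WT-CBL differed in this: replicate 3 had a rho with length of -0.36 within its line, against 0.23 and 0.24 for replicates 1 and 2. Cbl itself read 680 ± 51.9 in EV and 805 ± 119 in WT-CBL (mean ± SD, n = 3, as throughout). It read 1711 ± 104 in CBL-70Z, against 1514 ± 146 for CBL-Y371S. EV and WT-CBL overlapped at Cbl, although limma called it higher in WT-CBL (log2 fold change 0.23, adjusted p = 0.0294). Against WT-CBL it was higher by 1.10 in CBL-70Z and by 0.92 in CBL-Y371S. Comparisons of a mutant with WT-CBL thus differ in Cbl reads as well as in the mutation, and these cannot be told apart. Reads of the endogenous gene and of the transgene cannot be told apart either. Fibroblast markers were all present (10 of 10 with a mean of at least 10), their summed value running from 974399 to 1013439 in EV and from 885227 to 934683 in WT-CBL. It ran from 793110 to 805921 in CBL-70Z, against 758342 to 804998 in CBL-Y371S, and the part of this difference in the members' values was not tested. Of the 6 pluripotency markers none reached a mean of 10, Sox2, Zfp42 and Utf1 had no read in any library, and their summed value stayed between 0.903 and 7.09. In bulk RNA, a change in the number of expressing cells and a change in RNA per cell cannot be told apart.

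Hmga2, which encodes the AT-hook protein of embryonic mesenchyme and lies at chr10:120361275-120476469 on the minus strand, was about 2 times as high in both mutants as in EV and WT-CBL. Its normalized read counts were 4619, 4521 and 4668 in EV and 4496, 4401 and 4392 in WT-CBL. They were 8952, 9025 and 8998 in CBL-70Z, against 9002, 9075 and 9187 in CBL-Y371S. The 6 mutant libraries stood above the 6 others with a wide gap, and the spread within a line was small, with a coefficient of variation of 0.409% to 1.63%. The lowest of these, in CBL-70Z, lies below what read counting alone would give at this depth, so it understates the spread. The log2 fold change against EV was 0.97 ± 0.025 (SE) for CBL-70Z and 0.98 ± 0.025 for the other mutant, and against WT-CBL it was 1.02 and 1.04.

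Hmga1, the AT-hook gene on chromosome 17 (chr17:27556497-27563674, plus strand), was also higher in both mutants, and its levels were graded. It read 1031, 1098 and 1071 in EV and 1167, 1137 and 1257 in WT-CBL. It read 1915, 1887 and 1928 in CBL-70Z, against 2497, 2772 and 2419 in CBL-Y371S. No library of one line overlapped with those of another line. The log2 fold change against EV was 0.84 ± 0.047 in CBL-70Z and 1.26 ± 0.047 in CBL-Y371S.

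Hmga1b, the single-exon copy at chr11:120762794-120764419, took more reads than Hmga1 in every library. It read 4083, 4152 and 3730 in EV, with 4070, 4089 and 4041 in WT-CBL. The mutants gave 6592, 6328 and 6685 for CBL-70Z, then 8391, 7674 and 7969 for CBL-Y371S. EV and WT-CBL overlapped, and the CBL-70Z libraries lay between them and CBL-Y371S. The log2 fold change against EV was 0.71 ± 0.038 in CBL-70Z and 1.01 ± 0.038 in CBL-Y371S.

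**Figure D2:**
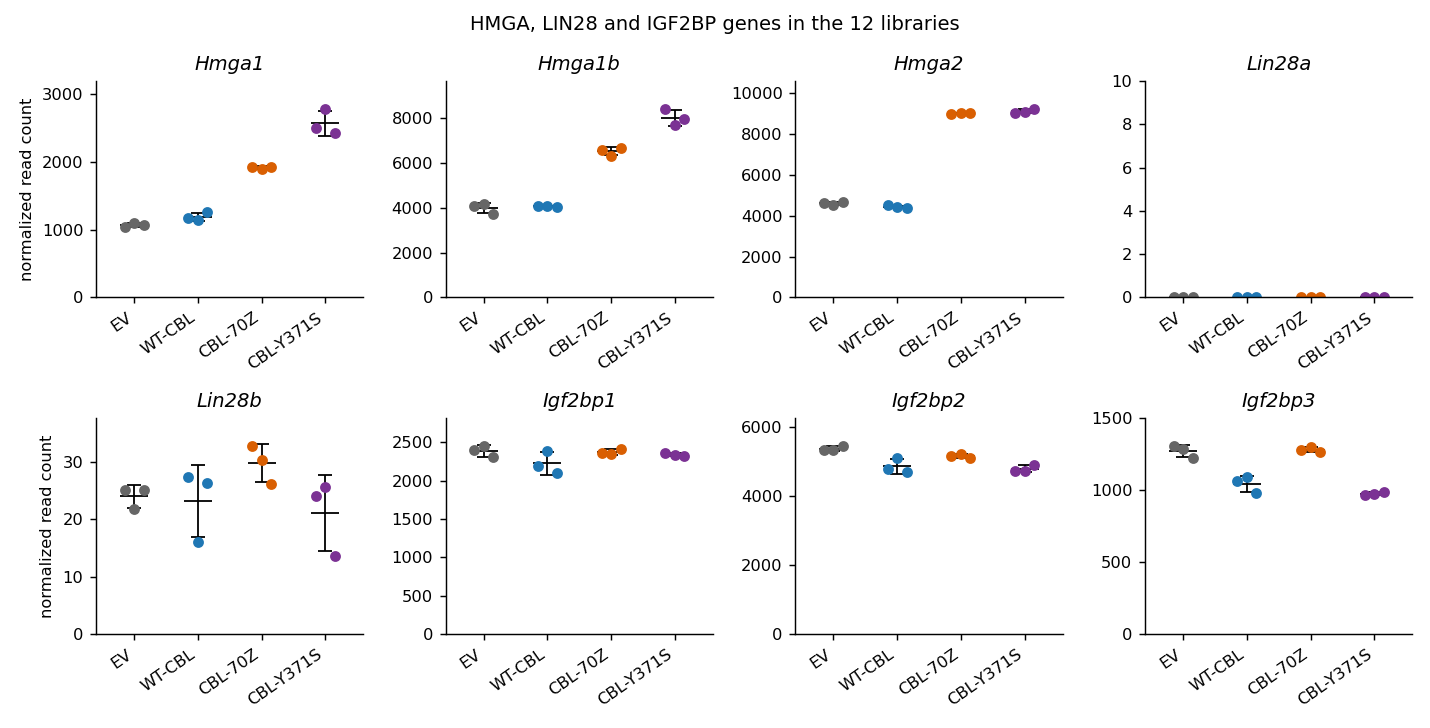
Normalized read counts of the 8 members in each of the 12 libraries, by line; points are libraries, the long bar is the line mean and the whiskers are 1 SD (n = 3). Hmga1, Hmga1b and Hmga2 are higher in both mutant lines, Lin28a is at 0, Lin28b stays below 33 and the Igf2bp genes span narrow ranges.

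The Hmga1 and Hmga1b values are uncertain as separate genes. Of the 36-base windows of the Hmga1 transcripts, 60.1% also occurred in another gene, all 1459 of them in Hmga1b, and 91.7% of the Hmga1b windows occurred in Hmga1. The way reads were shared between the copies is set by the alignment, and whether Hmga1b itself is transcribed here was not tested. Hmga1 took 21.1% ± 1.09 of the reads of the pair in EV and 22.6% ± 1.01 in WT-CBL. The share was 22.6% ± 0.311 in CBL-70Z, against 24.3% ± 1.98 in CBL-Y371S, with overlapping ranges between all lines except EV and each mutant. Summed, the pair read 4802 to 5251 in EV and 5227 to 5298 in WT-CBL. The sum was 8215 to 8613 in CBL-70Z, against 10388 to 10888 in CBL-Y371S. The log2 fold change of the sum, an alternative chosen after seeing the data, was 0.74 ± 0.032 for CBL-70Z and 1.07 ± 0.032 for CBL-Y371S against EV. Of the Hmga2 windows 4.56% were shared with other genes.

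**Figure D3:**
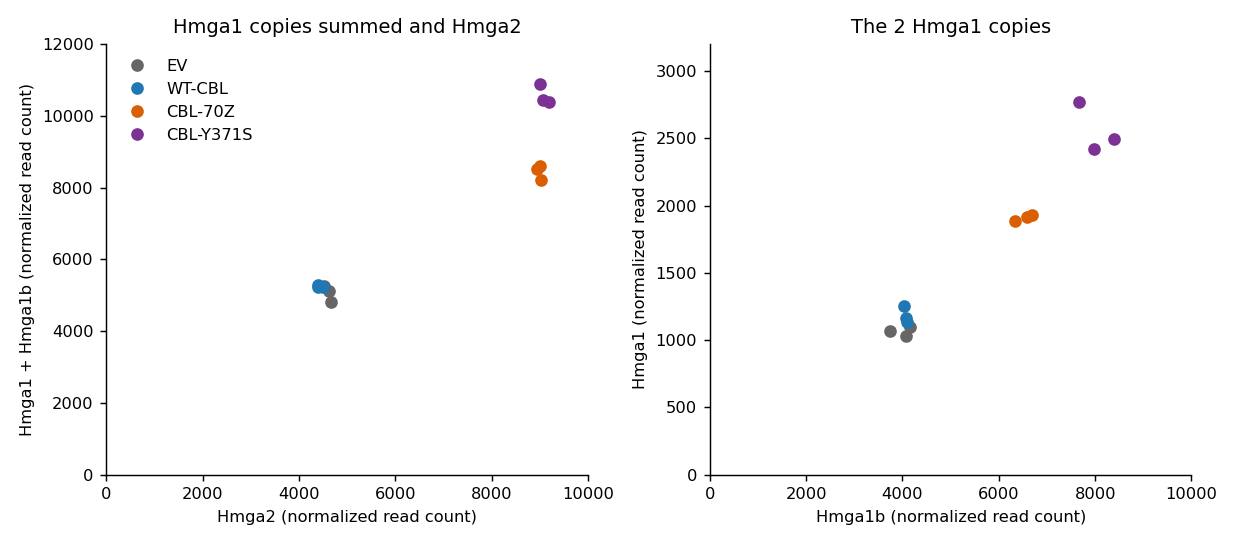
Left, the summed normalized read count of Hmga1 and Hmga1b against that of Hmga2 in each library; right, Hmga1 against Hmga1b; each point is 1 library, coloured by line. Hmga2 sits between 8952 and 9187 in both mutants, while the Hmga1 sum is 8215 to 8613 in CBL-70Z and higher, 10388 to 10888, in CBL-Y371S.

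In CBL-70Z against EV, 3 of the 7 tested members were called higher at an adjusted p below 0.05, Hmga1, Hmga1b and Hmga2, where 12.2% of all genes were called higher and 24.3% in either direction. In CBL-Y371S against EV the same 3 were called higher and Igf2bp2 and Igf2bp3 lower, where 29.8% of all genes were called higher, 30.3% lower and 60.1% in either direction. These counts rest on the comparisons that chose the set and take Hmga1 and Hmga1b as separate members, and nothing is read from them. Across all genes 10.1% were called higher in both mutants.

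The mutants were compared with each other directly, a comparison that the choice did not use, although the libraries of both mutants entered that choice. Of the 7 tested members 4 differed, where 50.4% of all genes did: 2 were higher in CBL-70Z, as were 25.9% of all genes, and 2 lower, as were 24.5%. The 2 lower were Hmga1 and Hmga1b, which share most of their windows and are not independent members in these counts. Hmga1 was lower in CBL-70Z than in CBL-Y371S (log2 fold change -0.42 ± 0.047, adjusted p = 3.76e-07), and so was Hmga1b (-0.29 ± 0.038, adjusted p = 2.8e-06). At both copies the 3 libraries of one mutant did not overlap with those of the other. The differences were smaller once the part of a fold change predicted by exon length and GC content had been removed, -0.23 for Hmga1 and -0.09 for Hmga1b, and both kept an adjusted p below the threshold. No difference of Hmga2 between the mutants passed the test (log2 fold change -0.02, 95% interval -0.068 to 0.037, adjusted p = 0.644), and the libraries overlapped. With the length and GC trend removed Hmga2 stood at -0.19 and was called (adjusted p = 1.03e-06), so its call depends on that trend.

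WT-CBL against EV was likewise a comparison that the choice did not use, although the EV libraries entered that choice. The p-values of the Hmga genes here are therefore not independent of the choice. Here 4 of 7 members were called, where 41.8% of all genes were: 1 higher, as were 20.8% of all genes, and 3 lower, as were 21% of them. Hmga1 rose in WT-CBL by 0.15 ± 0.047 (adjusted p = 0.0128), with every WT-CBL library above every EV library. The rise of Hmga1 was no longer called without WT-CBL replicate 3 (0.11, adjusted p = 0.0553), without EV replicate 1 (0.13, adjusted p = 0.0673), with the length and GC trend removed (0.08, adjusted p = 0.143) or with the copies summed (0.06, adjusted p = 0.174). Hmga1b was at 0.03 ± 0.038 (adjusted p = 0.574) and Hmga2 at -0.06 ± 0.025 (adjusted p = 0.0875, 95% interval -0.11 to -0.0025). The 3 Hmga2 libraries of WT-CBL lay below the 3 of EV, but the difference missed the threshold.

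**Figure D4:**
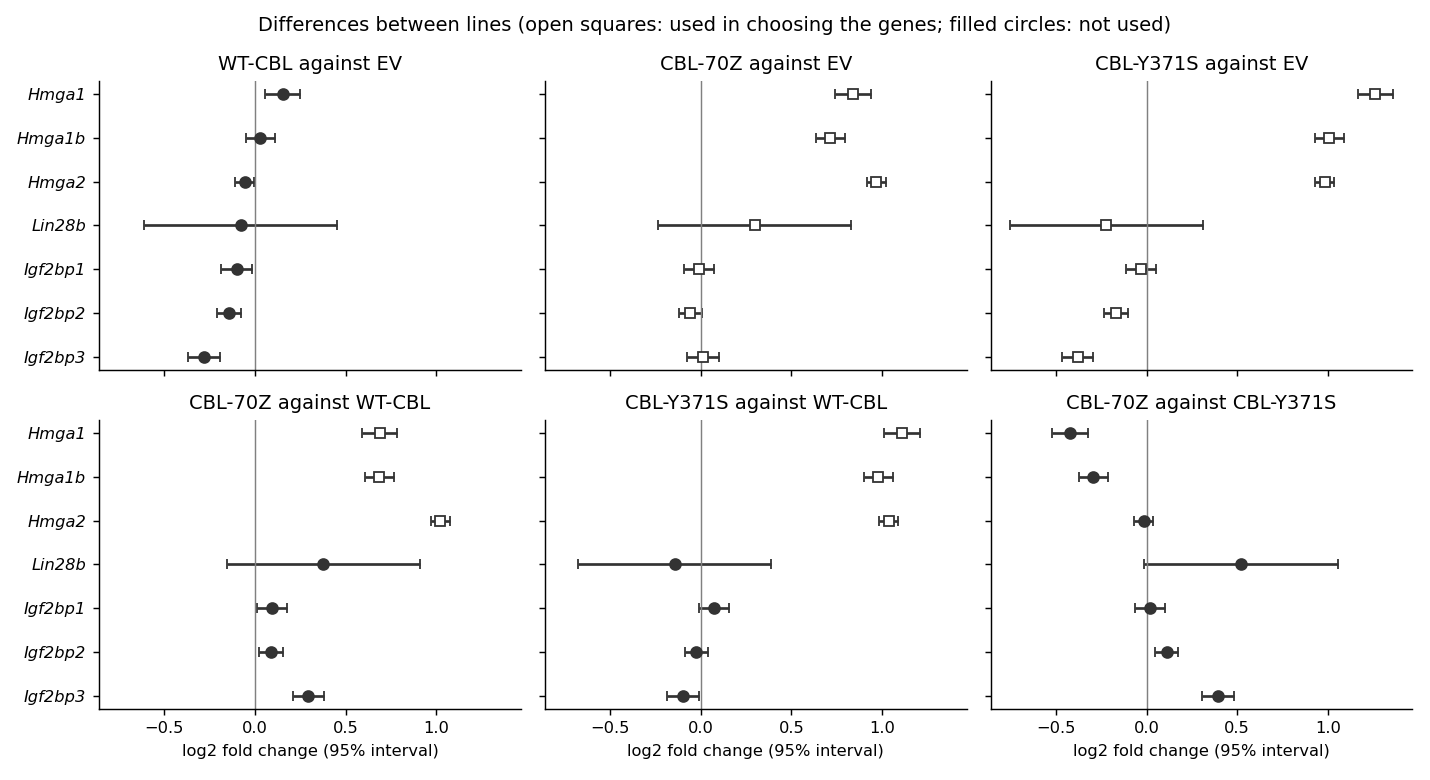
Log2 fold changes of the 7 tested members in the 6 comparisons of lines, with 95% intervals from the fit across all genes; open squares mark values used in choosing the genes and filled circles values that were not. The Hmga genes stand to the right in all 4 comparisons of a mutant with EV or WT-CBL, and Hmga2 is at -0.02 between the mutants.

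Genes on the opposite strand overlap the Hmga genes, and the library kit did not keep strand. The antisense transcript 1700006J14Rik shares 140 exonic bases with Hmga2, and read 31.8 ± 5.72 in EV and 18.4 ± 4.72 in WT-CBL. It read 52.1 ± 3.41 in CBL-70Z, against 31.5 ± 3.64 in CBL-Y371S. AI413582 shares 102 exonic bases with Hmga1 and read 445 ± 18.8 in EV and 471 ± 17.3 in WT-CBL. It read 493 ± 4.98 in CBL-70Z, against 614 ± 25.1 in CBL-Y371S. The part of either overlap in the Hmga values was not tested.

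The regions upstream of the Hmga genes are described because these genes were high in the same lines. The 250 bases before each RefSeq start (GRCm38.p6) were searched on both strands for the GC box with the letters GGGCGG, the TATA box with the letters TATAAA, the E box with the letters CACGTG, the AP-1 site with the letters TGACTCA, and the CCAAT box, searched by the letters of its name. The window before the first start of Hmga1 held 3 GC boxes and that of Hmga2 held 1, and neither held any of the other motifs. The Hmga1 window, chr17:27556324-27556573, runs into an exon of Hmga1 annotated from base 27556497 in GENCODE M21, and its GC boxes lie within that exon. The window of Hmga1b held 0 GC boxes and 1 AP-1 site with 49.6% G or C, while that of Igf2bp2 held 2 GC boxes with 77.2%. A GC box was present in 32.7% of the 32851 promoters of the same length. The Hmga1 window had 72.8% G or C and the Hmga2 window 56.4%, against a median of 52.4% over those promoters. The Hmga2 window, at chr10:120476470-120476719 on the minus strand, is shown with its GC box in capitals. The match is a description of letters and not of binding.
Hmga2: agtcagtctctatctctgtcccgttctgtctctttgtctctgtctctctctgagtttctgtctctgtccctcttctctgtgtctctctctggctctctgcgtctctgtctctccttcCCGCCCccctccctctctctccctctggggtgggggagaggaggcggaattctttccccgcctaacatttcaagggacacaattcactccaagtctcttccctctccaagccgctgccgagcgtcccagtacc

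Lin28a was not detected in any line, and Lin28b was low but detected in every library. Lin28a, the LIN28 paralog of pluripotent cells (chr4:134003330-134018841), had 0 reads in all 12 libraries together, 293812041 reads in genes in all. A count of 0 allows up to 3 reads, or 0.145 CPM (reads scaled to the library total) in the shallowest library, a limit that covers counting error only.

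Lin28b (chr10:45376620-45486395) was present at 15 to 32 reads per library. Its normalized read counts were 25.1, 21.7 and 25.0 in EV, with 27.3, 15.9 and 26.3 in WT-CBL. The mutants gave 32.7, 30.3 and 26.2 for CBL-70Z, then 24.1, 25.6 and 13.5 for CBL-Y371S. The CBL-70Z libraries lay above those of EV and CBL-Y371S, yet the spread within a line reached a coefficient of variation of 31.2%. No comparison of Lin28b passed the test: the widest difference, CBL-70Z against CBL-Y371S, was 0.52 ± 0.25 (adjusted p = 0.0972, 95% interval -0.011 to 1.05). Against WT-CBL the value was 0.38 for CBL-70Z, with an adjusted p = 0.274. For CBL-Y371S it was -0.14 (adjusted p = 0.696), and WT-CBL stood at -0.08 against EV (adjusted p = 0.835). A rise of the size seen for Hmga2 lies outside the 95% interval for CBL-Y371S against WT-CBL (-0.68 to 0.39).

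The widest log2 difference of an Igf2bp gene over the 6 comparisons was 0.39, that of Igf2bp3 between the mutants. Igf2bp1, whose protein stabilizes Myc and other mRNAs (chr11:95957163-96005940), read 2398, 2451 and 2304 in EV, with 2185, 2389 and 2101 in WT-CBL. The mutants gave 2362, 2341 and 2412 for CBL-70Z, then 2363, 2330 and 2321 for CBL-Y371S. Every pair of lines overlapped. Igf2bp1 was lower in WT-CBL than in EV by a log2 fold change of -0.10 ± 0.040 (adjusted p = 0.0465), with overlapping libraries, and was no longer called in 10 of the 12 fits that left out a library, the value without WT-CBL replicate 3 being -0.06 (adjusted p = 0.207). With the length and GC trend removed the direction turned to 0.05 (adjusted p = 0.222). Against EV, CBL-70Z stood at -0.01 and CBL-Y371S at -0.03, and the latter became 0.18 with the trend removed.

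Igf2bp2, the family member on chromosome 16 known for its role in metabolism (chr16:22059009-22163299), had the most reads of the family. It read 5348, 5335 and 5457 in EV, with 4804, 5117 and 4698 in WT-CBL. The mutants gave 5176, 5226 and 5119 for CBL-70Z, then 4744, 4721 and 4907 for CBL-Y371S. All libraries of the 3 CBL lines lay below those of EV. In WT-CBL it fell by 0.14 ± 0.031 on the log2 scale (adjusted p = 0.000965). Against EV it stood at -0.06 for CBL-70Z, and CBL-Y371S was at -0.17. With the length and GC trend removed these became -0.04 in WT-CBL (adjusted p = 0.253) and -0.01 in CBL-Y371S.

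Igf2bp3, an embryonic family member (chr6:49085223-49214957), split the lines into a higher and a lower pair. It read 1305, 1280 and 1222 in EV and 1274, 1300 and 1265 in CBL-70Z. It read 1062, 1089 and 981 in WT-CBL and 965, 973 and 986 in CBL-Y371S. EV and CBL-70Z overlapped, WT-CBL and CBL-Y371S overlapped, and no library of one pair reached the other. In WT-CBL Igf2bp3 fell by 0.28 ± 0.042 on the log2 scale against EV (adjusted p = 2.2e-05), and by 0.24 without replicate 3 of that line (adjusted p = 3.75e-05). Against EV it stood at 0.01 in CBL-70Z and -0.38 in CBL-Y371S. Removal of the length and GC trend brought it to -0.16 in WT-CBL (adjusted p = 0.0017) and to -0.15 in CBL-Y371S.

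Between the mutants, Igf2bp3 was higher in CBL-70Z by 0.39 ± 0.042 (adjusted p = 2.26e-07) and Igf2bp2 by 0.11 ± 0.031 (adjusted p = 0.0054), whereas Igf2bp1 stood at 0.02 (95% interval -0.062 to 0.10, adjusted p = 0.694). With the length and GC trend removed the difference of Igf2bp3 was 0.18 and kept its call, that of Igf2bp2 was -0.00087 (adjusted p = 0.983), and Igf2bp1 stood at -0.12 (adjusted p = 0.0047). The Igf2bp transcripts are long, with 7402 to 9682 annotated exonic bases, and how much of these differences follows gene length was not tested beyond this correction.

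Of the 4 members outside the Hmga genes, 2 were higher in CBL-70Z than in WT-CBL, where 18.9% of all genes were called higher and 35.2% in either direction. Igf2bp3 rose by 0.30 ± 0.042 (adjusted p = 1.6e-05) and Igf2bp2 by 0.09 ± 0.031 (adjusted p = 0.0348). Igf2bp1 stood at 0.09 ± 0.040 (adjusted p = 0.0728) and was called without WT-CBL replicate 2 (0.15, adjusted p = 0.0037). Without WT-CBL replicate 3 Igf2bp1 stood at 0.05 (adjusted p = 0.293), and with the length and GC trend removed at 0.0027, called in neither. The Igf2bp2 call was lost in 5 of the 12 fits that left out a library, without WT-CBL replicate 3 for example (0.06, adjusted p = 0.112), and with the length and GC trend removed (0.02, adjusted p = 0.526). In CBL-Y371S against WT-CBL 0 of these 4 were called by limma, edgeR or DESeq2, where limma called 40.0% of all genes, and at an unadjusted p below 0.05 limma had 1, edgeR 2 and DESeq2 0. Of all genes, 18.5% were called higher and 21.5% lower there. Igf2bp3 was the nearest at -0.10 ± 0.042 (adjusted p = 0.0721), and was called without WT-CBL replicate 3 (-0.14, adjusted p = 0.0052). It stood at 0.01 with the length and GC trend removed (adjusted p = 0.870). Igf2bp1, at 0.07 (adjusted p = 0.154), was called without WT-CBL replicate 2 (0.13, adjusted p = 0.0106) and with the trend removed (0.13, adjusted p = 0.0045). Without WT-CBL replicate 3 it stood at 0.03 (adjusted p = 0.498).

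**Figure D5:**
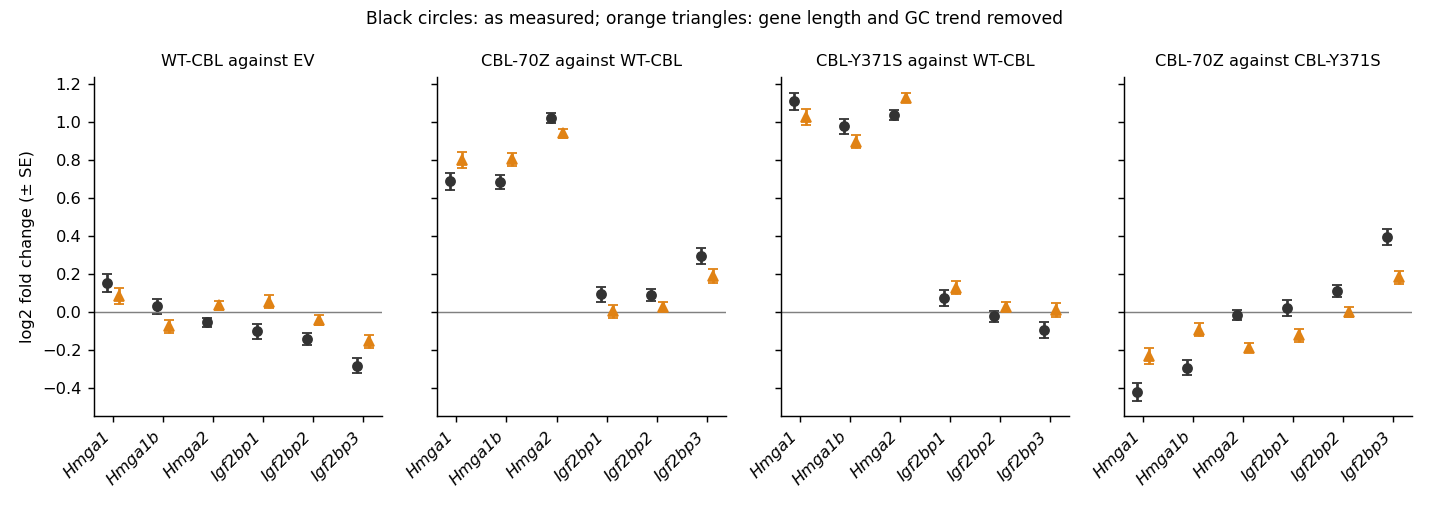
Log2 fold changes (± SE) of 6 members in 4 comparisons, as measured (circles) and without the part that followed exon length and GC content (triangles). The Hmga1, Hmga1b and Hmga2 values against WT-CBL stay between 0.68 and 1.13 in both forms, whereas Igf2bp1 crosses 0 in WT-CBL against EV and between the mutants, and Igf2bp2 moves to -0.04 and to -0.00087.

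Igf2bp3 overlaps the antisense gene Malsu1 by 1529 exonic bases, and 18.4% of its 36-base windows occurred in other genes. Malsu1, which encodes a mitochondrial ribosome assembly factor, read 436 ± 6.82 in EV and 495 ± 40.3 in WT-CBL. It read 435 ± 9.89 in CBL-70Z, against 518 ± 32.0 in CBL-Y371S. Malsu1 was thus high where Igf2bp3 was low (log2 fold change against EV 0.18 with an adjusted p = 0.0221 for WT-CBL, and 0.25 with 0.00168 for CBL-Y371S). How reads in the overlap were assigned was not tested.

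Summed, the Igf2bp genes read 9033 ± 44.3 in EV and 8142 ± 415 in WT-CBL. The sum was 8825 ± 37.0 in CBL-70Z, against 8103 ± 98.9 in CBL-Y371S. By line, Igf2bp2 gave 58.6% to 59.9% of the sum, Igf2bp1 26.4% to 28.9% and Igf2bp3 12.03% to 14.5%.

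Levels were compared between genes per kilobase of annotated exon. Those of Hmga1 and Hmga1b depend on how the alignment divided reads between the copies, so their places in the order are uncertain. In EV the order was Hmga1b (2453), Igf2bp2 (727), Hmga2 (680), Hmga1 (502), Igf2bp1 (246), Igf2bp3 (156), Lin28b (2.64) and Lin28a at 0, in normalized reads per kilobase, and no neighbours in that order overlapped. In WT-CBL the order was the same, but Igf2bp2 (658 ± 29.5) and Hmga2 (654 ± 8.49) overlapped. In both mutants Hmga2 and Hmga1 stood above Igf2bp2: in CBL-70Z Hmga2 was at 1328, Hmga1 at 899 and Igf2bp2 at 699, and in CBL-Y371S they were at 1342, 1206 and 647. Per kilobase, Hmga2 was 0.935 ± 0.0089 times Igf2bp2 in EV, 0.995 ± 0.048 times in WT-CBL, 1.90 ± 0.019 times in CBL-70Z and 2.07 ± 0.027 times in CBL-Y371S. Among 12235 tested protein-coding genes, Hmga2 stood above 85.5% in EV and above 94.0% in CBL-70Z, and Lin28b stood above 2.51% in EV.

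The genes whose pattern was most like a member were taken by Pearson r of the log2 value over the 12 libraries. Those points share libraries and fall into 4 lines, and r is given with no test. Most like Hmga2 were Etv5, an ETS transcription factor (r = 0.997), Ctsl, the lysosomal protease cathepsin L (0.996), and Crabp1, a retinoic acid binding protein (0.993). Etv5 averaged 398 in EV and 381 in WT-CBL, then 818 in CBL-70Z and 844 for the other mutant. Most like Hmga1 were Arhgap22, a RAC-directed GTPase activating protein (0.996), Oaf (0.993) and Tm4sf1, a transmembrane protein (0.992), and most like Hmga1b were Etv4 (0.993), the paxillin gene Pxn (0.992) and the linker histone gene H1f0 (0.990). Etv4, a relative of Etv5, had means of 446, 441, 837 and 1097 in the same order of lines, graded between the mutants as Hmga1 and Hmga1b were.

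Igf2bp3 was most like Nbea, Cep192 and Mapk1ip1l (r = 0.992 for each). Nbea, a large scaffold protein of membrane traffic, had means of 1436, 1034, 1390 and 919 in that order, high in EV and CBL-70Z. Igf2bp2 was most like Nnat (0.962), Smcr8 (0.961) and Lrrc16a (0.961), and Igf2bp1 most like Plekhg2 (0.958), Kmt2b (0.926) and Dlg5 (0.924). For Lin28b no gene passed 0.806, the value of Thnsl1, followed by Syn3 (0.794) and Wisp3 (0.788).

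The gene groups that follow are read against all tested genes, of which 20.8% were called higher and 21% lower in WT-CBL against EV. The shares were 12.2% and 12.1% in CBL-70Z, and for CBL-Y371S they were 29.8% and 30.3%. Once the length and GC trend had been taken out they became 20.8% and 15.7%, 15.3% and 11.4%, and 32.1% and 24.7% in the same order of lines. Without WT-CBL replicate 3, an alternative chosen after seeing the data, 2 of the 69 differences of named group genes with WT-CBL lost their call, neither of a gene given below.

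Genes of let-7 maturation and microRNA silencing fell more often than they rose in WT-CBL and CBL-Y371S. Of 26 such genes, all tested, 15 fell (57.7%) and 2 rose in WT-CBL and 15 fell and 4 rose in CBL-Y371S, while in CBL-70Z 3 fell and 4 rose, all against EV. With the trend removed 10 fell and 3 rose in WT-CBL, and 12 and 5 in CBL-Y371S. Without WT-CBL replicate 3 the WT-CBL counts were 13 and 2. The CBL-70Z counts became 7 and 4 without that library, and were 1 and 1 without EV replicate 2, CBL-70Z replicate 1 or CBL-70Z replicate 2, 1 and 2 without EV replicate 1, and 2 and 2 without EV replicate 3. The median log2 fold change was -0.15, -0.23 and -0.04 in WT-CBL, CBL-Y371S and CBL-70Z, against 0.015, 0.0073 and 0.0050 over all genes. Ago2, the argonaute that cleaves targets, fell from 5688 ± 78.5 in EV to 3992 ± 368 in WT-CBL and 3580 ± 85.7 in CBL-Y371S. Zcchc6, a uridylyl transferase that acts on let-7 precursors, fell from 1742 ± 68.7 to 1113 ± 20.9 in CBL-Y371S (log2 fold change -0.64 ± 0.045, adjusted p = 2.22e-10). With the length and GC trend removed the medians shrank to -0.05 in WT-CBL and -0.06 in CBL-Y371S, and Ago2 stood at -0.29 and -0.34 in place of -0.51 and -0.67. Zcchc6 stood at -0.27 in CBL-Y371S. Between the mutants 16 of the 26 were higher and 3 lower in CBL-70Z, as were 25.9% and 24.5% of all genes. Tnrc6b, a partner of argonaute, stood at 2697 ± 41.1 in CBL-70Z against 1838 ± 44.4 in CBL-Y371S. After removal of the trend 7 of the 26 were higher and 4 lower, beside 18.5% and 22.8% of all genes. The difference of Tnrc6b went from 0.55 to 0.17.

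Little of the let-7 loci themselves could be read. Among the tables' 12 loci and host transcripts only 3 were tested. Huwe1, the host of Mirlet7f-2 and Mir98, fell by 0.48 on the log2 scale in WT-CBL and in CBL-Y371S against EV, and with the trend removed stood at -0.16 and -0.04.

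Other reported let-7 targets went in both directions. This group and those that follow share genes, Ccnd1, Cdk6 and Igf2 among them. Of 43 tested targets, 7 rose and 21 fell in WT-CBL against EV, 14 rose and 13 fell in CBL-70Z, and for CBL-Y371S the counts were 11 and 28, with medians of -0.14, 0.021 and -0.30. With the trend removed 8 rose and 16 fell in WT-CBL, and for CBL-Y371S 13 and 18. Ccnd1, encoding cyclin D1, rose from 3683 ± 118 in EV by 0.88 ± 0.031 in CBL-70Z and by 1.04 ± 0.031 in CBL-Y371S on the log2 scale, where it reached 7576 ± 153. Thbs1, encoding thrombospondin 1, fell from 145066 ± 804 to 65299 ± 636 in CBL-70Z, and CBL-Y371S reached 43369 ± 466. Mycn fell in WT-CBL from 248 ± 9.55 to 141 ± 9.42 (log2 fold change -0.81 ± 0.091, adjusted p = 8.91e-07).

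Grouped by let-7 sites in the longest 3′ UTR, and leaving the members out, 79 tested genes had 3 or more sites. Their median log2 fold change against EV was -0.04 in CBL-70Z and -0.23 in CBL-Y371S, where Hmga2 stood at 0.97 and 0.98. The 9988 genes without a site had medians of 0.019, 0.0023 and 0.012. The median 3′ UTR was 5173 bases with 3 or more sites and 988.5 bases with none. With the length and GC trend removed the medians of the first group were -0.013, -0.0068 and -0.06.

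Of 27 tested genes reported as HMGA targets, 14 rose and 9 fell in CBL-70Z against EV, and 15 rose and 9 fell in CBL-Y371S, with medians of 0.11 and 0.19, while in WT-CBL 6 rose and 10 fell with a median of 0.031. The 14 and 9 called in CBL-70Z were 51.9% and 33.3% of the group, where 12.2% and 12.1% of all genes were called. The 15 and 9 in CBL-Y371S were 55.6% and 33.3%, beside 29.8% and 30.3%. In WT-CBL the 6 and 10 of 27 stood beside 20.8% and 21% of all genes. With the trend removed the medians were 0.13 in CBL-70Z, 0.26 in CBL-Y371S and 0.026 in WT-CBL. The list was chosen with earlier results of these data known, and a part of HMGA proteins in these changes was not tested. Spp1, encoding the secreted protein osteopontin, rose from 34093 ± 576 in EV to 55805 ± 1445 in CBL-70Z, and CBL-Y371S reached 59428 ± 2630. Mmp9, a matrix metalloprotease gene, rose in CBL-70Z from 733 ± 33.2 to 1022 ± 34.3, and the repair gene Ercc1 rose in CBL-Y371S from 2221 ± 65.5 to 3756 ± 112. Insr, the insulin receptor gene, fell in CBL-Y371S from 1744 ± 43.7 to 1035 ± 33.7 (-0.75 on the log2 scale, and -0.41 with the trend removed). Between the mutants 10 were higher and 9 lower in CBL-70Z, where 25.9% and 24.5% of all genes were.

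Of 16 tested genes for other high mobility group proteins, 6 rose and 0 fell in CBL-70Z against EV, and 9 rose and 2 fell in CBL-Y371S, with medians of 0.084 and 0.14. In WT-CBL against EV 5 rose and 3 fell, with a median of 0.078, near that of CBL-70Z. Directly against WT-CBL, 4 were higher and 2 lower in CBL-70Z (median -0.0017), and 5 higher and 1 lower in CBL-Y371S (median 0.071). Without CBL-70Z replicate 2, 3 rose and 0 fell in CBL-70Z. Hmgb2, a chromatin protein of dividing cells, rose from 661 ± 22.8 in EV to 795 ± 46.7 in CBL-70Z, and CBL-Y371S reached 894 ± 18.7. Hmgb3 rose to 274 ± 4.24 in CBL-Y371S from 183 ± 19.2.

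Transcripts described as bound by IGF2BP proteins changed in both directions. Of 20 tested, 8 rose and 7 fell in WT-CBL against EV, 6 rose and 5 fell in CBL-70Z, and for CBL-Y371S the counts were 9 and 9. With the trend removed more rose than fell, 9 and 4 in WT-CBL, 8 and 4 in CBL-70Z, and for CBL-Y371S 11 and 5. Igf2, the growth factor mRNA that gave the family its name, stood at 7987 ± 133 in EV and fell to 3687 ± 188 in WT-CBL and 3854 ± 72.9 in CBL-70Z, and further to 1848 ± 34.0 in CBL-Y371S. H19, the neighbouring noncoding RNA, was low throughout and rose from 5.56 ± 4.15 in EV to 19.1 ± 2.04 in WT-CBL and 15.8 ± 4.65 in CBL-Y371S. Cdk6, a cell cycle kinase gene, was higher in CBL-70Z (366 ± 15.6) than in WT-CBL (198 ± 25.2).

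Genes of the IGF axis fell more often than they rose in all 3 CBL lines. Of 16 tested, 9 fell and 2 rose in WT-CBL against EV, 11 fell and 0 rose in CBL-70Z, and for CBL-Y371S the counts were 12 and 3, with medians of -0.33, -0.28 and -0.60. The falls made up 56.2%, 68.8% and 75.0% of the group, beside 21%, 12.1% and 30.3% of all genes, and with the trend removed 9, 10 and 12 fell. Beside Igf2, Igf1 fell in CBL-70Z from 93.7 ± 10.1 to 49.2 ± 7.21, Pappa, a protease that frees IGFs from binding proteins, fell in CBL-Y371S from 428 ± 20.1 to 161 ± 12.5, and Stc1 fell in WT-CBL from 1867 ± 40.1 to 1072 ± 28.8.

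Of 30 tested RNA-binding relatives and partners of the members, 7 rose and 10 fell in WT-CBL against EV, 5 rose and 0 fell in CBL-70Z, and for CBL-Y371S the counts were 9 and 12. The CBL-70Z counts became 8 and 1 without WT-CBL replicate 3, and 3 and 0 without EV replicate 2. Qk, a regulator of splicing, fell from 3744 ± 153 in EV to 2906 ± 188 in WT-CBL and 2488 ± 57.8 in CBL-Y371S. With the length and GC trend removed the counts in CBL-Y371S became 20 higher and 7 lower, those in WT-CBL 12 and 5 and those in CBL-70Z 11 and 1, and Qk stood at -0.10 in WT-CBL and -0.15 in CBL-Y371S.

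Among other embryonic and oncofetal genes no common direction was seen: of 19 tested, 3 rose and 4 fell in CBL-70Z against EV, and 7 rose and 6 fell in CBL-Y371S. The CBL-70Z counts were 2 and 2 without EV replicate 2 or CBL-70Z replicate 2. Crabp1 rose from 2848 ± 47.0 in EV to 5661 ± 107 in CBL-70Z, and stood at 5939 ± 191 in CBL-Y371S. Pou5f1, Nanog, Sox2 and Sall4 did not reach the filter in any line.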

How the data were processed

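NIH-3T3 RNA was sequenced as paired 36-base reads. Per the labels and methods, the authors aligned reads with TopHat2 2.0.13 and Bowtie2 2.2.4.0 to GRCm38, counted them with HTSeq 0.9.1 and divided counts by DESeq2 size factors. The deposited signal values are these normalized counts, scaled separately in 3 tables, each a CBL line beside EV. The tables also hold the authors' fold changes and p-values, which were not used. The annotation release and strand setting are not given in the sources used here. Whole reads were recovered for 100% of values (tolerance 1e-06), and the 12 libraries, with 20724468 to 29684881 reads in genes, were put on 1 median-of-ratios scale.

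The 15266 genes whose mean reached 10 in 1 or more lines were fitted with limma 3.58.1 (R 4.3.3) on log2(value + 1), all lines in 1 fit, with Benjamini-Hochberg adjustment over all genes and a threshold of 0.05. A log2 fold change is on that scale, which understates changes of low genes. The script was tested on simulated data. edgeR 4.0.16, DESeq2 1.42.0, other scalings, filters and pseudocounts, a replicate block, removal of a smooth trend in exon length and GC content, and leaving out each library were tried as alternatives. Beyond the members, the 3 genes of a list with the largest called change without overlap of libraries were named, with the 3 genes most like each member. The members and lists were chosen with earlier results of these data known. Of the 39179 identifiers 22922 had a symbol in the tables, and GENCODE M21 named 15255 more.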

Additional observations from a re-analysis of the deposited data

Results flagged for a closer look

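The change against EV differed between the mutants for 4 members, by the direct contrast of the mutant lines in limma with Benjamini-Hochberg adjustment. Of these, Hmga1 and Hmga1b are uncertain as separate genes. Given as CBL-70Z minus CBL-Y371S on the log2 scale, the difference was -0.42 for Hmga1 (adjusted p = 3.76e-07) and -0.29 for Hmga1b (adjusted p = 2.8e-06). It was 0.11 for Igf2bp2 (adjusted p = 0.0054) and 0.39 for Igf2bp3 (adjusted p = 2.26e-07). In each case the 3 libraries of one mutant did not overlap with those of the other.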

How the results depend on the processing

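Leaving out 1 library at a time kept direction and call for 476 of 504 member values, lost the call for 17 and gained it for 3, and 8 values called in neither fit changed sign. The other settings kept both for 440 of 483, lost 15 and gained 4, and 24 changed sign, all with the length and GC trend removed: 16 were called in neither fit and 8 in at least 1. These 8, with and without a replicate block, were Igf2bp1 at 0.054 in WT-CBL and 0.18 in CBL-Y371S against EV, and, CBL-70Z against CBL-Y371S, Igf2bp1 at -0.12 and Igf2bp2 at -0.00087. The count of members called in WT-CBL against EV was then 1, and 2 to 4 when 1 library was left out. In that comparison the Igf2bp1 call was also lost with the deposited scaling (adjusted p = 0.0858), DESeq2 (0.0575), no filter (0.0805) and only the lines compared (0.104). The share of called genes that were higher in CBL-Y371S than in WT-CBL moved from 46.3% to 56.5% with the trend removed. Replicate numbers did not pair the libraries (r from -0.22 to 0.22 over 18 same-numbered pairs, 1 above 0.1), and the replicate block alone changed no member call, with 6270 genes called in WT-CBL against EV beside 6383. The sum of the Hmga1 copies and the group counts without WT-CBL replicate 3 were added after seeing the data. The values resting on the fewest reads were those of Lin28a, at 0, and Lin28b, at 15 to 32 per library.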
